A study of Mus musculus with 2 samples.

Results

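The 50 genes described here encode histone deacetylases, histone lysine demethylases and lysine methyltransferases, and their transcripts were followed in single-nucleus RNA-seq of mouse retina at postnatal day 21. They were taken by symbol from the 32227 genes of the deposited table, as the numbered Hdac genes, the Kdm genes without the Y-linked Kdm5d, the Kmt genes of the KMT2 and KMT5 families, the numbered Setd genes, Ezh1, Ezh2, Eed, Suz12, Ehmt1 and Ehmt2. The set held 11 deacetylases, 17 demethylases and 22 methyltransferases or their core subunits. Not every member acts mainly on histones. Hdac6 deacetylates tubulin, Hdac10 acts on polyamines, Hdac8 on the cohesin subunit SMC3, and Setd3 methylates actin. Eed and Suz12 are subunits of Polycomb repressive complex 2 (PRC2) without catalytic activity of their own.

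Whole retinas of 2 genotypes on the C57 BL/6J strain were compared, with 1 library each. The control, labelled WT and called Cre−, carried no Cre transgene and came from breeders without Cre. In the Tet tcKO, floxed alleles of Tet1, Tet2 and Tet3 were deleted by the Chx10-Cre-GFP transgene, which is active in retinal progenitor cells and is known to be mosaic. Nuclei of 2 dissociation pools per genotype, each of several animals, entered the reaction, and no nucleus carries the name of its pool. Each genotype therefore counted as 1 sample, no test between genotypes was possible, and intervals in parentheses are exact 95% intervals that cover counting error only.

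Acetyl and methyl groups on histone tails mark which stretches of chromatin are read. Deacetylases remove acetyl groups and mostly work inside corepressor complexes. Methylation of H3K4 and H3K36 marks active promoters, enhancers and gene bodies, whereas methylation of H3K9, H3K27 and H4K20 marks silenced chromatin, and demethylases take these groups off again. Kdm2a, Kdm2b, Kmt2a and Kmt2b carry CXXC domains, which bind unmethylated CG dinucleotides. TET enzymes oxidise methylated cytosine at the same dinucleotides. Mouse rods are known for an inverted nucleus, with heterochromatin at its centre.

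Of 11510585 unique molecular identifiers (UMIs) in 7357 Cre− nuclei, 72649 came from the 50 genes, and of 16590747 UMIs in 6766 Tet tcKO nuclei 100157 did. All 50 genes had UMIs in both libraries, from 92 for Kdm8 to 7908 for Kmt2e in the Cre− library and from 176 to 8172 for the same genes in the Tet tcKO library. The libraries differed as wholes. Tet tcKO nuclei were deeper, with a median of 1836.5 UMIs against 1107, and mitochondrial genes took 1.76% of UMIs against 5.47%. Nuclei annotated as rods or cones made up 47.8% of Tet tcKO and 74.5% of Cre− nuclei. The Tet transcripts stood near the median gene in both libraries, at log2 ratios of 0.14 (-0.01 to 0.29) for Tet1, 0.27 (0.16 to 0.37) for Tet2 and -0.20 (-0.28 to -0.12) for Tet3, but these counts run over whole genes and do not check the deletion. The libraries shared 1 cell barcode. Over all nuclei, fewer cells of a type and less RNA per cell cannot be told apart.

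Levels are given as counts per 1000000 UMIs (CPM), first for Cre− and then for Tet tcKO. Each log2 ratio divides Tet tcKO by Cre− and has the ratio of the median gene subtracted, so that 0 is the median gene. Genes entered with 10 CPM or above in either library. That median stood at 0.15 over all nuclei, 0.23 in pooled rods and cones, -0.01 in amacrine nuclei and 0.02 in retinal ganglion cell (RGC) nuclei. A member was counted as higher or lower where this ratio was past 1.5-fold.

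Over all nuclei, 7 members were lower in Tet tcKO and 0 were higher. Among the 11158 genes tested, 10.6% were lower and 7.75% higher by the same rule. The 7 were the corepressor Hdac5, the polyamine deacetylase Hdac10, Kdm4b, a demethylase of H3K9 and H3K36, the H3K9 demethylase Kdm4d, the H3K4 methyltransferase family members Kmt2c and Kmt2e, and the PRC2 catalytic subunit Ezh2. The members' median log2 ratio was -0.05, with ratios from -0.73 for Hdac5 to 0.38 for Kmt5b. Counting intervals lay below the median gene for 22 members and above it for 10, and 18 spanned it, against 33.6% below and 30.5% above among all genes tested. No member differed 2-fold, as 5.70% of all genes did. Without centring 0 members were past 1.5-fold, and with the normalization factors of edgeR (TMM) 4 were, all lower.

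**Figure D1:**
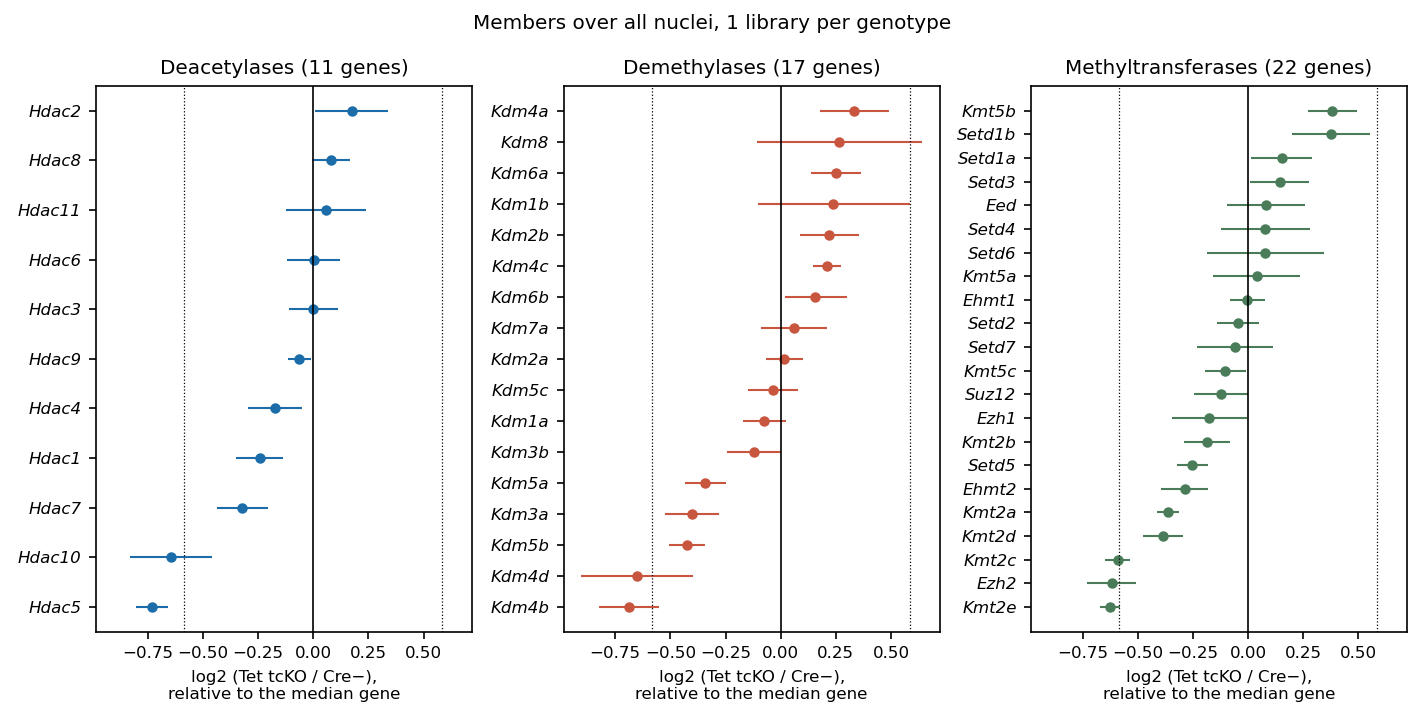
The log2 ratio of each of the 50 members over all nuclei is plotted by family, with Tet tcKO over Cre− on the horizontal axis relative to the median gene, bars for 95% counting intervals and dotted lines at 1.5-fold. Hdac5 lies lowest at -0.73 and Kmt5b highest at 0.38, and 7 points lie past the lower dotted line.

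Among class I deacetylases, the closely related Hdac1 and Hdac2, catalytic subunits of the Sin3, NuRD and CoREST complexes, lay on opposite sides of the median gene. Hdac1 stood at 109.6 CPM in the Cre− library and 103 CPM in the Tet tcKO library, for a log2 ratio of -0.24 (-0.35 to -0.14). Hdac2 stood at 40.9 and 51.1 CPM, for a log2 ratio of 0.17 (0.01 to 0.34). Neither reached 1.5-fold, and the intervals did not overlap. Hdac3, the deacetylase of NCoR and SMRT, had 91.0 and 101 CPM, a ratio about that of the median gene (-0.11 to 0.11). Hdac8 had 149 and 175 CPM, with an interval of -0.01 to 0.17.

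The class IIa deacetylases Hdac4, Hdac5, Hdac7 and Hdac9 shuttle between cytoplasm and nucleus with neuronal activity and bind MEF2 factors. All 4 had ratios under the median gene. Hdac5 was at 288 CPM in the Cre− library and 192 CPM in the Tet tcKO library, for a log2 ratio of -0.73 (-0.80 to -0.66), the lowest of the 50. Hdac7 was at 96.7 and 85.7 CPM, for a log2 ratio of -0.32 (-0.44 to -0.21). Hdac4 and Hdac9 were closer to the median gene, at -0.17 (-0.29 to -0.05) and -0.06 (-0.12 to -0.01). By total counts without centring, the level of Hdac9 was instead higher in Tet tcKO, at 441 CPM against 416 CPM. Of class IIb, Hdac10 was lower at 41.6 and 29.5 CPM, for a log2 ratio of -0.64 (-0.83 to -0.46), while the X-linked Hdac6 was at 80.9 and 89.6 CPM with an interval of -0.12 to 0.12. Hdac11, the sole class IV member, was at 35.2 and 40.5 CPM, for a log2 ratio of 0.06 (-0.12 to 0.24).

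Within the KDM4 demethylases, which act on H3K9 and, other than Kdm4d, on H3K36, the members lay on opposite sides. Kdm4b was at 79.7 CPM in the Cre− library and 54.7 CPM in the Tet tcKO library, for a log2 ratio of -0.69 (-0.82 to -0.55). Kdm4d was at 22.2 and 15.7 CPM, for a log2 ratio of -0.65 (-0.91 to -0.40). Both lower members stood apart from their relatives. Kdm4a was at 44.9 and 62.6 CPM, for a log2 ratio of 0.33 (0.18 to 0.49), and Kdm4c at 276 and 354 CPM, for a log2 ratio of 0.21 (0.15 to 0.27). The intervals of the 2 lower genes did not overlap those of the 2 others.

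The demethylases of H3K4 gave smaller ratios. Kdm5b had 188 and 155 CPM, for a log2 ratio of -0.42 (-0.51 to -0.34). Kdm5a had 148 and 129 CPM, for a log2 ratio of -0.34 (-0.43 to -0.25). The X-linked Kdm5c, at 90.2 and 97.4 CPM, and the flavin-dependent Kdm1a, at 123 and 129 CPM, had intervals that spanned the median gene. So did Kdm1b, with a log2 ratio of 0.24 (-0.10 to 0.59) on 109 and 205 UMIs.

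Both H3K27 demethylases, which oppose PRC2, lay above the median gene. Kdm6a (UTX, X-linked) was at 81.8 and 108 CPM, for a log2 ratio of 0.25 (0.14 to 0.37). Kdm6b (JMJD3) was at 56.5 and 69.7 CPM, for a log2 ratio of 0.16 (0.02 to 0.30). Of the H3K9 demethylases, Kdm3a had a log2 ratio of -0.40 (-0.53 to -0.28) and Kdm3b one of -0.12. Kdm2b, which binds CpG islands and brings Polycomb repressive complex 1 (PRC1) to them, had 62.1 and 80.0 CPM, for a log2 ratio of 0.22 (0.09 to 0.35), and its relative Kdm2a had 0.02. Kdm7a (0.06) and Kdm8 (0.26, on 92 and 176 UMIs) had intervals that spanned the median gene.

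The H3K4 methyltransferase group showed the same kind of split, with the KMT2 genes below the median gene and the SETD1 genes above it. Kmt2e, a SET-domain protein without established activity, was at 687 CPM in the Cre− library and 493 CPM in the Tet tcKO library, for a log2 ratio of -0.63 (-0.67 to -0.58). Kmt2c, an enhancer monomethyltransferase, was at 411 and 302 CPM, for a log2 ratio of -0.59 (-0.65 to -0.53). Its partner in function Kmt2d had a log2 ratio of -0.39 (-0.48 to -0.30), Kmt2a one of -0.36 (-0.41 to -0.31) and Kmt2b one of -0.19 (-0.29 to -0.08). All 5 intervals were below 0. Without centring those of 4 were, while Kmt2b had -0.04 (-0.15 to 0.07). The promoter H3K4 methyltransferase Setd1b was at 33.9 and 48.6 CPM, for a log2 ratio of 0.37 (0.20 to 0.55), and Setd1a at 58.0 and 71.3 CPM, for a log2 ratio of 0.15 (0.01 to 0.29).

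Of the PRC2 subunits, the catalytic pair differed in abundance and in ratio. Ezh2, the form of dividing cells, was at 111 CPM in the Cre− library and 80.0 CPM in the Tet tcKO library, for a log2 ratio of -0.62 (-0.73 to -0.51). Ezh1 was at 42.0 and 41.1 CPM, for a log2 ratio of -0.18. The scaffold Suz12, at 79.8 and 81.0 CPM, and Eed, at 36.4 and 42.6 CPM, had log2 ratios of -0.12 and 0.08. The 6 progenitor markers, Mki67, Top2a, Ccnd1, Fgf15, Sfrp2 and Hes1, summed to 57.4 CPM in the Cre− library and 65.6 CPM in the other. This sum does not measure dividing cells alone. In Cre− Müller nuclei it was 234 CPM, with no UMIs of Mki67, Top2a, Fgf15 or Sfrp2.

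The H4K20 enzymes held the highest ratio of the set. Kmt5b, which places di- and trimethylation on H4K20, was at 82.7 CPM in the Cre− library and 119 CPM in the Tet tcKO library, for a log2 ratio of 0.38 (0.27 to 0.49). Its paralog Kmt5c was at 134 and 138 CPM, for a log2 ratio of -0.10 (-0.20 to -0.01), and Kmt5a, the monomethyltransferase, had 0.04. The H3K9 methyltransferase Ehmt2 (G9a) was at 112 and 102 CPM, for a log2 ratio of -0.29 (-0.39 to -0.18), while the interval of its partner Ehmt1 (GLP) ran from -0.08 to 0.08 at 174 and 193 CPM. The other SET-domain genes lay between -0.25 for Setd5 and 0.14 for Setd3, with -0.05 for Setd2, which trimethylates H3K36, -0.06 for Setd7 and 0.08 for both Setd4 and Setd6.

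Summed over each family, the methyltransferases took 3307 CPM (3274 to 3340) of the Cre− library and 2974 CPM (2947 to 3000) of the Tet tcKO library. The deacetylases took 1430 CPM (1409 to 1452) and 1387 CPM (1369 to 1405), and the demethylases 1574 CPM (1551 to 1597) and 1677 CPM (1657 to 1697). By total counts, the methyltransferase sum was thus lower in Tet tcKO and the demethylase sum higher, a scaling under which the median gene was also higher, at 0.15. The demethylase sum rose less than the median gene, over all nuclei and in pooled rods and cones, where that gene stood at 0.23. Within the classes compared between genotypes, the demethylase sum by total counts was higher in pooled rods and cones (1608 and 1720 CPM) and RGC nuclei (1242 and 1320 CPM). It was lower in amacrine nuclei (1507 and 1475 CPM). In RGC nuclei and these last classes the intervals overlapped. In these sums the most abundant genes weigh most, as Kdm4c does among demethylases, at 276 and 354 CPM over all nuclei.

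Several members lie across or beside other genes, and the sources used here do not give whether the counting used strand. In the GRCm39 annotation (GENCODE vM39), 24 of the 50 overlap a gene of the table on the opposite strand. Hdac5 lies on chromosome 11 from 102085245 to 102121072 and overlaps G6pc3 there, and Kmt2e on chromosome 5 from 23639418 to 23709233 overlaps Srpk2. Kmt5b, on chromosome 19 from 3817362 to 3868322, overlaps Gm16066, and Kdm4c, on chromosome 4 from 74160734 to 74324757, overlaps A230083N12Rik. For these genes reads of the partner cannot be told apart from reads of the member. Kdm4b (chromosome 17 from 56632913 to 56714338) and Kmt2c (chromosome 5 from 25476796 to 25703810) overlap no other gene of the table. Hdac9, on chromosome 12 from 34097579 to 34967094, is the 1 member that overlaps a gene on its own strand, Gm47357.

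The next comparison asks whether the differences between the libraries held within cell classes. Classes are those of the authors' annotation. Against marker lists, no amacrine, RGC, Müller, horizontal or cone cluster was led by markers of another class, while 3 of 15 rod clusters and 4 of 9 bipolar clusters were. With leading genes ranked by nuclei in place of UMIs, 4 rod clusters and 1 bipolar cluster were, and 0 of the other classes. Rods and cones were pooled, and bipolar nuclei were not compared between genotypes. Pooling answers a cone marker in a rod cluster, as Pde6h in cluster 36, but not markers of other classes. Rod clusters 25 (pericyte marker Abcc9), 32 (RGC marker Nefl, 568 nuclei), 38 and 40 also failed in at least 1 ranking. Their nuclei stayed in the pool. A cluster failed this check only where markers of another class outnumbered its own among its 10 leading genes. In both rankings no listed marker was among them for the 3 Müller clusters, amacrine clusters 13, 23 and 27, and cone clusters 11, 46 and 52. The same held for bipolar cluster 43 and for rod clusters 16, 20, 21 and 44, which are part of the pool. The check could therefore neither bear out nor contradict the names of these clusters.

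In pooled rods and cones (5479 Cre− and 3231 Tet tcKO nuclei), 7 members were lower in Tet tcKO and 0 were higher, against 13.2% and 11.5% of the 11377 genes tested there. They were Kdm4d, Kmt2e, Kdm4b, Kmt2c, Ezh2, the H3K9 demethylase Kdm3b and the H3K4 demethylase Kdm5a. The members' median was -0.09, the range -0.95 to 0.40. Without centring the split was 3 lower and 2 higher, and the median was 0.15. The Cre− pool held 5214 rod and 265 cone annotations and the Tet tcKO pool 6 and 3225, with summed rod markers at 10344 and 6020 CPM and summed cone markers at 1341 and 5816 CPM. Genotype and photoreceptor type cannot be told apart in this pool.

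The lowest ratios were those of Kdm4d and Kmt2e. Kdm4d was at 23.9 CPM in the Cre− library and 14.6 CPM in the Tet tcKO library, for a log2 ratio of -0.95 (-1.31 to -0.60), on 181 and 108 UMIs. Kmt2e was at 653 and 409.6 CPM, for a log2 ratio of -0.91 (-0.97 to -0.84), on 4947 and 3035 UMIs. Kmt2e thus had the narrower interval of the 2 lowest members. Kdm4b was at 70.8 and 44.7 CPM, for a log2 ratio of -0.90 (-1.10 to -0.70). Kmt2c was at 416 and 281 CPM, for a log2 ratio of -0.80 (-0.88 to -0.72), and Ezh2 at 114 and 84.9 CPM, for a log2 ratio of -0.66 (-0.81 to -0.51). Hdac5, lowest over all nuclei, stood just short of 1.5-fold among photoreceptors, at 312 and 245 CPM with a log2 ratio of -0.58 (-0.67 to -0.50).

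The highest ratios in photoreceptors were under 1.5-fold. Setd6, a methyltransferase known for RELA, was at 17.6 and 27.3 CPM, for a log2 ratio of 0.40 (0.08 to 0.73). Hdac2 was at 39.5 and 61.0 CPM, for a log2 ratio of 0.39 (0.18 to 0.61), while Hdac1 had -0.28 (-0.42 to -0.14). Kmt5b was at 89.6 and 134 CPM, for a log2 ratio of 0.35 (0.21 to 0.49). Setd1a followed at 0.31 (0.13 to 0.49) and Kdm4a at 0.30 (0.11 to 0.50). The class IIa deacetylases all had intervals under the median gene here, from -0.58 for Hdac5 to -0.29 for Hdac7. The other pairs split less, with Kdm6a at 0.12 and Kdm6b at 0.30, Ehmt1 at -0.01 and Ehmt2 at -0.21, Kmt5c at 0.07, and Ezh1 at -0.43 (-0.67 to -0.19).

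In amacrine nuclei (403 Cre− and 1043 Tet tcKO), 49 members were tested, Kdm8 being under 10 CPM in both libraries. Of these, 7 were higher in Tet tcKO and 3 lower, where 16.9% and 16.5% of the 10831 genes tested were. The members' median was -0.03. Without centring 5 were higher and 3 lower, and with TMM factors 9 and 2. Most Cre− amacrine nuclei lay in cluster 27 (256) and the largest share of Tet tcKO ones in cluster 12 (357), so the class is compared over clusters that the libraries share only in part. Summed rod markers stood at 2476 CPM in the Cre− library and 1254 CPM in the Tet tcKO library amacrine nuclei and summed cone markers at 517 and 1438 CPM, beside 2010.5 and 2321 CPM for the amacrine list. The part of these transcripts in the results was not tested.

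The 3 lower members in amacrine nuclei had also been lower over all nuclei. Hdac5 was at 286 CPM in the Cre− library and 157 CPM in the Tet tcKO library, for a log2 ratio of -0.86 (-1.13 to -0.58). Kdm4b was at 100.3 and 61.0 CPM, for a log2 ratio of -0.71 (-1.16 to -0.24). Kdm4d rested on 13 and 36 UMIs, with an interval of -1.54 to 0.45 around -0.59. Below these, though not past 1.5-fold, came Kmt2b at -0.57 (-0.98 to -0.14) and Hdac7 at -0.50 (-0.88 to -0.11).

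Setd1b had the highest ratio in amacrine nuclei, at 23.3 CPM in the Cre− library and 49.9 CPM in the Tet tcKO library, for a log2 ratio of 1.11 (0.28 to 2.06) on 13 and 117 UMIs. Kmt5b was at 57.3 and 97.3 CPM, for a log2 ratio of 0.77 (0.23 to 1.35). Hdac8 was at 163 and 244 CPM, for a log2 ratio of 0.59 (0.27 to 0.93). The intervals of these 3 lay above the median gene. The other 4, Setd4 (0.70), Hdac11 (0.64), Setd6 (0.60) and Kdm4a (0.59), rested on 6 to 21 Cre− UMIs and had intervals that spanned it. Hdac9, at 428 and 549 CPM, had a log2 ratio of 0.37 (0.17 to 0.57), the only class IIa gene with an interval above the median gene in this class.

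In RGC nuclei (567 Cre− and 704 Tet tcKO), 7 members were higher in Tet tcKO and 3 lower, against 11.2% and 11.4% of 10262 genes. The members' median was -0.09. Without centring the split was the same, and with TMM factors 9 were higher and 2 lower. Cluster 8 held 394 of the Cre− RGC nuclei and cluster 31 held 273 of the Tet tcKO ones. Rod markers summed to 1727 CPM in the Cre− library and 849 CPM in the Tet tcKO library, cone markers to 281 and 902 CPM, and the RGC list to 1704 and 1656 CPM.

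Among the lower members in RGC nuclei, Hdac5 was at 175 CPM in the Cre− library and 91.0 CPM in the Tet tcKO library, for a log2 ratio of -0.97 (-1.25 to -0.68). Kdm5b was at 146 and 96.6 CPM, for a log2 ratio of -0.62 (-0.92 to -0.33). Within cluster 31 alone the ratio of Hdac5 was 1.46, on 4 Cre− UMIs. Setd6 had the same point ratio as Hdac5, but on 20 and 18 UMIs, and its interval reached 0.02. Hdac10 (-0.55) and Hdac3 (-0.53, interval -0.88 to -0.17) completed the 5 lowest. Hdac4 also had an interval under the median gene, at -0.52 (-0.84 to -0.19), so 3 of the 4 class IIa genes did.

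The higher members in RGC nuclei came from several families. Ezh1, the PRC2 subunit of resting cells, was at 21.1 CPM in the Cre− library and 41.7 CPM in the Tet tcKO library, for a log2 ratio of 0.96 (0.31 to 1.65) on 26 and 89 UMIs. Ezh2 in the same nuclei had -0.39 (-0.84 to 0.07). Kmt5b was at 55.3 and 95.2 CPM, for a log2 ratio of 0.76 (0.36 to 1.18), and its paralog Kmt5c at -0.10. Kdm6a was at 71.5 and 120.5 CPM, for a log2 ratio of 0.73 (0.37 to 1.10), with Kdm6b at 0.18. Within clusters 2 and 31 alone the ratio of Kdm6a was 0.31 and 0.03, with intervals that spanned the median gene. Kdm6b had 1.21 (0.19 to 2.38) in cluster 2, on 10 Cre− and 40 Tet tcKO UMIs, and 0.08 in cluster 31. Its point ratio was thus above that of Kdm6a in both clusters, with overlapping intervals. The intervals of Kdm8 (1.13, on 7 and 27 UMIs), Kdm1b (0.73), Setd1b (0.63) and Kdm4a (0.60) crossed the median gene. Kdm3b, just under 1.5-fold, had an interval above it, at 60.2 and 89.1 CPM with a log2 ratio of 0.54 (0.15 to 0.95).

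**Figure D2:**
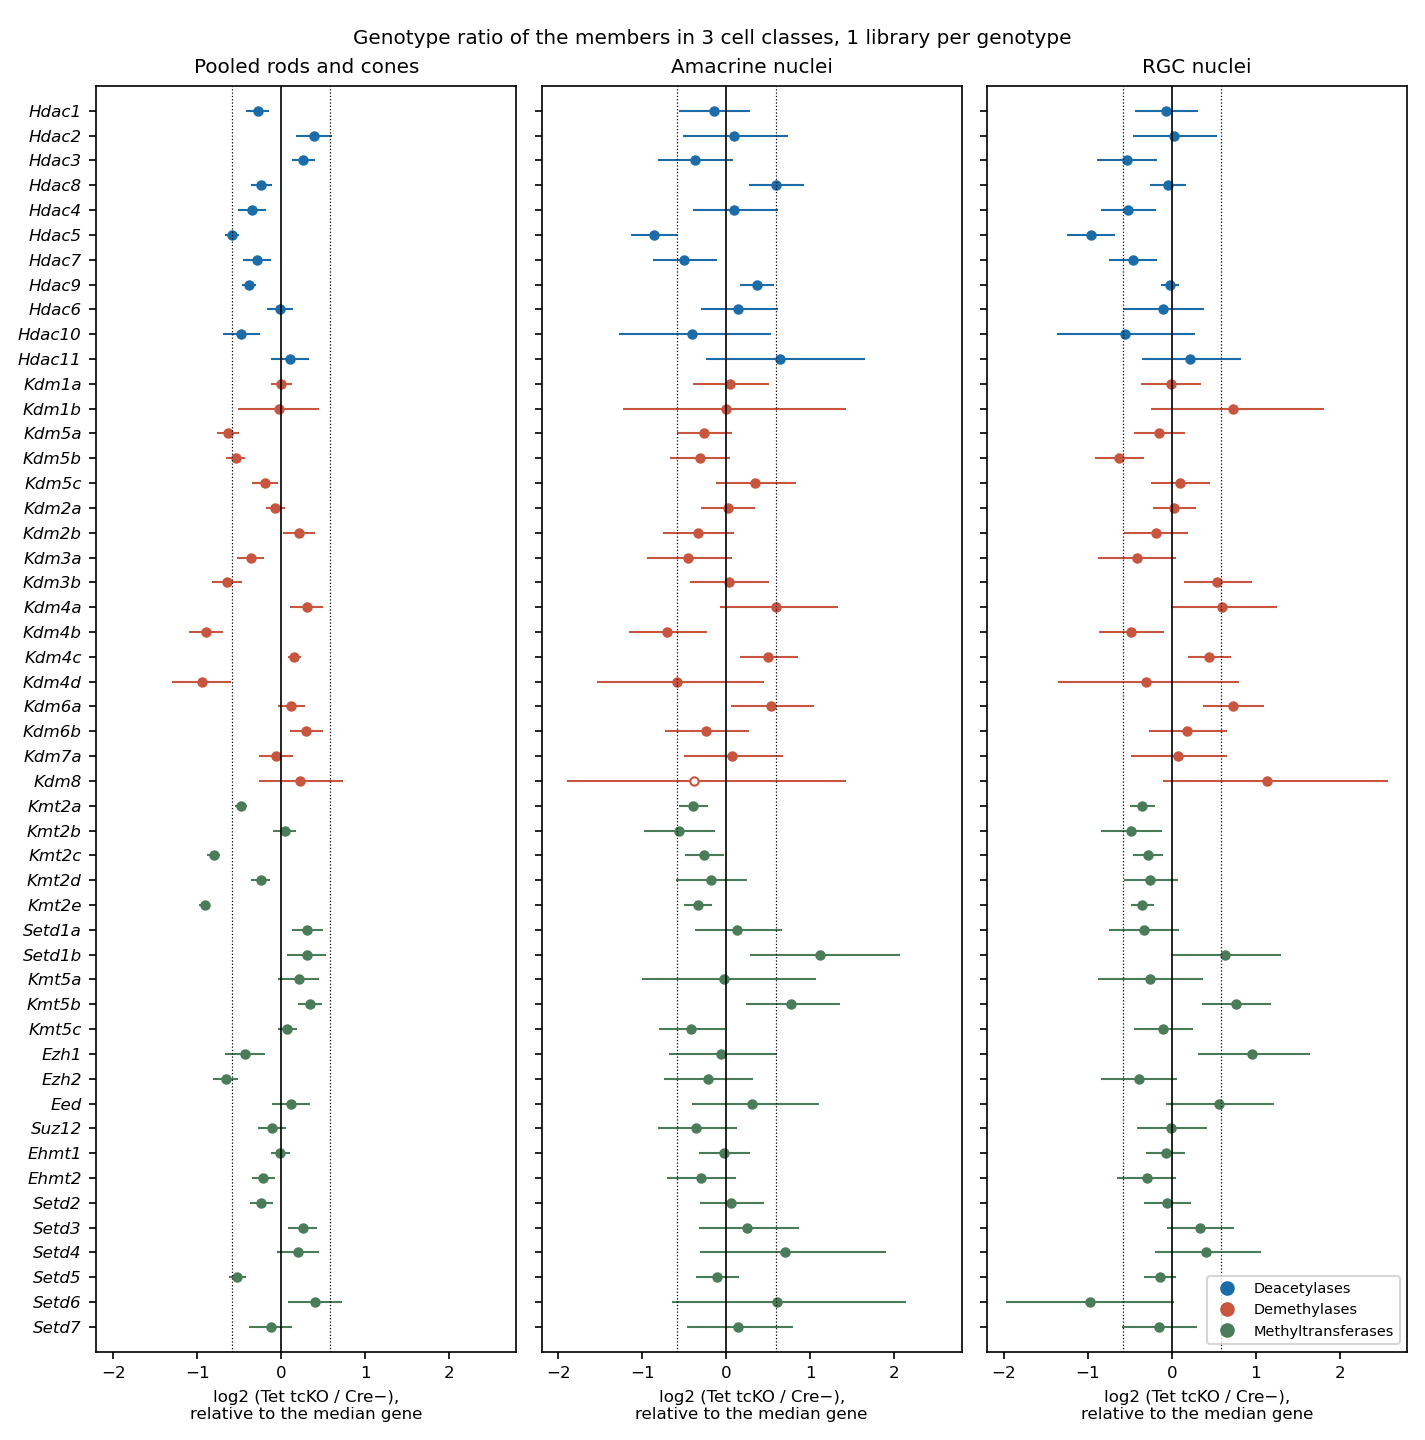
The genotype ratio of the 50 members is plotted for pooled rods and cones, amacrine nuclei and RGC nuclei, as log2 of Tet tcKO over Cre− relative to the median gene of each class, with bars for 95% counting intervals, dotted lines at 1.5-fold and an open circle for the member under 10 CPM. Hdac5 is left of 0 and Kmt5b right of 0 in all 3 panels, while Ezh1 runs from -0.43 in photoreceptors to 0.96 in RGC nuclei.

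A few members kept to 1 side in each of the 4 populations, of which all nuclei includes the other 3. Intervals lay below the median gene throughout for Hdac5, Hdac7, Kdm4b, Kmt2a, Kmt2c and Kmt2e, that is 6 of the 49 members tested in all 4. They lay above it for Kdm4c and Kmt5b, that is 2 members. Among the 9551 genes tested in all 4, 5.62% were below and 3.18% above throughout. Under total counts without centring, TMM and median-of-ratios factors as well, the members that stayed below were Hdac5, Kdm4b, Kmt2a and Kmt2e, and those that stayed above were Kdm4c and Kmt5b. Kmt2a was not past 1.5-fold in any of the 4 populations, with log2 ratios between -0.48 and -0.35. Kdm4c was also under 1.5-fold, with ratios between 0.16 in photoreceptors and 0.50 in amacrine nuclei.

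Clusters 2 and 31 (RGC) and 13 (amacrine) held 50 nuclei or more of both genotypes, which allowed comparisons within a cluster, chosen after the data were seen. Hdac5 was at 121 CPM in the Cre− library and 77.1 CPM in the Tet tcKO library in cluster 2, a log2 ratio of -0.71 (-1.25 to -0.17), and at 318 and 186 CPM in cluster 13, a log2 ratio of -0.75 (-1.40 to -0.09). In cluster 31 its ratio was reversed, at 1.46 (0.02 to 3.39), on 4 Cre− UMIs in 58 nuclei and 55 Tet tcKO UMIs in 273 nuclei. The level of Hdac5 in RGC nuclei thus differed between clusters within the Cre− library, from 47.2 CPM in cluster 31 to 234 CPM in cluster 8. Kmt5b was at 47.3 and 102 CPM in cluster 2, a log2 ratio of 1.05 (0.37 to 1.78), and had intervals that spanned the median gene in the other 2 clusters. Kdm4b had -1.04 (-2.05 to -0.03) in cluster 13 0.04 (-0.62 to 0.73) in cluster 2 and 0.57 (-0.79 to 2.27) in cluster 31, the last on 5 Cre− UMIs. Hdac3, at -0.53 in RGC nuclei as a class and not past 1.5-fold there, had -0.34 (-0.92 to 0.26) in cluster 2 and 2.14 (0.20 to 5.23) in cluster 31, where 2 Cre− UMIs were counted. Kmt2a was reversed past 1.5-fold in cluster 31, at 0.68 on 33 Cre− and 264 Tet tcKO UMIs, with an interval above the median gene. In clusters 2 and 13 Kmt2a had -0.11 and -0.38, with intervals that spanned the median gene.

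Sequence around the start sites is given for Hdac5, with the lowest ratio over all nuclei, and Kmt5b, with the highest, because TET enzymes act on CG dinucleotides, which are given in capitals. The windows run from 250 bases before to 50 bases after the start in RefSeq on GRCm38.p6, another build than that of the files, and methylation was not measured in these libraries.
Hdac5 promoter window, chr11:102230123-102230422, minus strand: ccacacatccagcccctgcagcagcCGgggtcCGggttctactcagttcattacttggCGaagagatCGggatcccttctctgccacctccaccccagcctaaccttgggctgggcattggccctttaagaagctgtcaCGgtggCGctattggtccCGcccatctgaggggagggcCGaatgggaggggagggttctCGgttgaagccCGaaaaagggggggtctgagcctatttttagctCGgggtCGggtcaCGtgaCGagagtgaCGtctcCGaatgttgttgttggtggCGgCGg
Kmt5b promoter window, chr19:3767171-3767470, plus strand: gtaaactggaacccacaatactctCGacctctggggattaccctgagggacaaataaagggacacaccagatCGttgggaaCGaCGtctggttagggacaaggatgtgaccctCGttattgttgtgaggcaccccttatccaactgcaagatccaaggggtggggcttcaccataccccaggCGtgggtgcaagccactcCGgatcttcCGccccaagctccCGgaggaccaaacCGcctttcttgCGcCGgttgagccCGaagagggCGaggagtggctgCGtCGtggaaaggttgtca
Kmt5b promoter window, chr19:3767639-3767938, plus strand: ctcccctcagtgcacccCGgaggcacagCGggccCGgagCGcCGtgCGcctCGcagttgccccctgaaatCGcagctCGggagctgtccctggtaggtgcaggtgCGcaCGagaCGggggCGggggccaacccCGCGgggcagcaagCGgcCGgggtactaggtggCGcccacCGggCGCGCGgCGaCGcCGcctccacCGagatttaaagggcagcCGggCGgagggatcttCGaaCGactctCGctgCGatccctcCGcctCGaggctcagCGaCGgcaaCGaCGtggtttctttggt
The Hdac5 window held 18 CG dinucleotides, a number that 29.7% of all 32817 windows in the table reached. The 2 start sites of Kmt5b differed, with 16 and 38, numbers that 33.0% and 4.96% of windows reached. CG was searched on 1 strand, since it reads the same on both, and 94.6% of all windows held at least 1. Of the 50 members, 39 had a window, and the median of the richest window per gene was 28 CG (quartiles 19 and 37) against 23 (15 and 31) for genes tested over all nuclei. Member genes spanned 45819.5 bases at the median, against 34815 bases for the genes tested.

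Within each library, cell classes were compared to see where the members were most abundant, and here a 2-fold difference after centring on the median gene was used. That median, relative to pooled rods and cones, stood at -0.21 in RGC and -0.07 in amacrine nuclei of the Cre− library. In Tet tcKO it stood at -0.45 and -0.34. The log2 differences given below are centred, so they lie above the plain CPM ratios by those amounts. Against pooled rods and cones of the Cre− library, RGC nuclei had 2 of 48 members higher and 1 lower (13.4% and 15.8% of all genes), and amacrine nuclei 1 of 49 higher and 1 lower (11.1% and 14.2%). In Tet tcKO, RGC nuclei had 5 of 50 higher and 2 lower (16% and 18%), and amacrine nuclei 2 higher and 0 lower (13.3% and 14.4%). Most members were therefore within 2-fold of photoreceptors in both neuron classes. With each gene counted once per nucleus, 3 differences in Tet tcKO RGC nuclei were left and 0 in the other 3 comparisons.

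Hdac9 separated RGCs from photoreceptors in both libraries. It was at 893 CPM in Cre− RGC nuclei and 350.2 CPM in Cre− photoreceptors, a log2 difference of 1.57 (1.46 to 1.67), and at 897 and 317 CPM in Tet tcKO, a log2 difference of 1.95 (1.86 to 2.04). Clusters of RGCs differed, from 633 CPM in cluster 8 to 1230 CPM (1134 to 1333) in cluster 2 of Cre−. In amacrine nuclei it stood between, at 428 CPM in the Cre− library and 549 CPM in the Tet tcKO library, and Müller nuclei had the lowest point values of Hdac9, at 261 CPM (198 to 337) and 241 CPM (169 to 334).

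Other deacetylases had a class order of their own. Hdac7 was at 149.6 CPM in Cre− RGC nuclei and 77.7 CPM in photoreceptors, a log2 difference of 1.16 (0.91 to 1.40), and at 110.2 and 74.9 CPM in Tet tcKO, a log2 difference of 1.01 (0.78 to 1.23). Hdac8 was at 228 and 133 CPM in Cre− and at 224 and 133 CPM in Tet tcKO, log2 differences of 0.99 and 1.21. Hdac10 was the reverse, at 20.3 CPM in Cre− RGC nuclei and 49.2 CPM in photoreceptors, a log2 difference of -1.06 (-1.71 to -0.48), and at 14.1 and 41.7 CPM in Tet tcKO. Hdac5 did not reach 2-fold after centring, but its intervals in RGC nuclei lay below the median gene. Its log2 difference was -0.62 (-0.83 to -0.42) in the Cre− library and -0.98 (-1.20 to -0.77) in the Tet tcKO library. Class IIa members thus lay on both sides, with the intervals of Hdac4, Hdac7 and Hdac9 above the median gene and that of Hdac5 below it in RGC nuclei of both libraries.

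Of demethylases, Kdm4c had intervals below the median gene in both neuron classes of both libraries. After centring it was past 2-fold in Cre− amacrine nuclei alone. It was at 323 CPM in Cre− photoreceptors against 147 CPM in amacrine and 145 CPM in RGC nuclei, log2 differences of -1.07 (-1.40 to -0.75) and -0.94 (-1.17 to -0.72). In Tet tcKO it was at 424, 207 and 201 CPM. Kdm2b was higher in Cre− amacrine nuclei, at 111 CPM against 53.3 CPM, a log2 difference of 1.13 (0.72 to 1.51). Intervals lay on the same side of the median gene in both libraries for 12 members above and 10 below in RGC nuclei, of 48 tested in both, and for 9 above and 4 below in amacrine nuclei, of 49. Of all genes tested in both libraries, 25.4% lay above and 20.9% below in RGC nuclei, and 17.7% and 14.7% in amacrine nuclei, so the members' counts were near or under those shares. The members above in RGC nuclei included Ehmt1, Kmt2a, Kmt2e, Setd2, Setd5 and Setd7, and those below included Ezh2, Kdm1a, Kmt2d and Kmt5c.

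**Figure D3:**
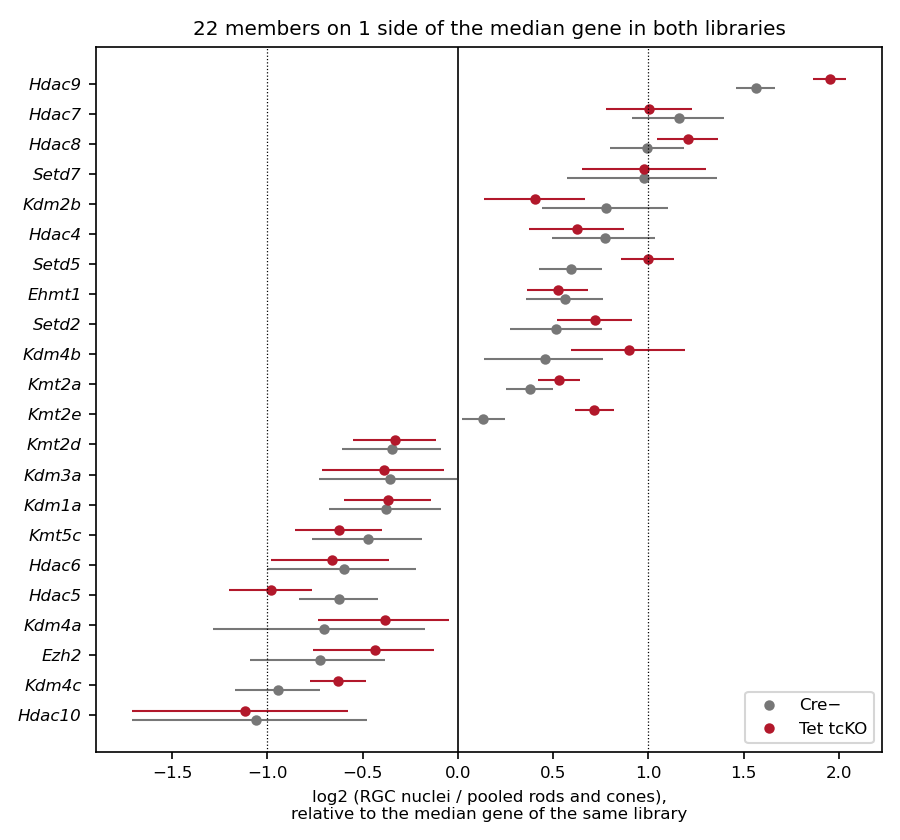
The log2 difference of RGC nuclei over pooled rods and cones, relative to the median gene of the same library, is plotted for 22 members. Their 95% counting intervals (bars) lay on the same side of the median gene in both libraries. Cre− is in grey, Tet tcKO in red, and dotted lines are at 2-fold. Hdac9 lies farthest right at 1.57 and 1.95, and Hdac10 farthest left at -1.06 and -1.12.

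In Müller and horizontal nuclei, levels were read without a comparison because few nuclei were captured, 144 and 102 Müller nuclei and 90 and 37 horizontal nuclei. Hdac5 was at 229.5 CPM (171 to 302) and 127 CPM (76.7 to 199) in Müller nuclei and at 152 CPM (97.1 to 226) and 90.1 CPM (43.2 to 166) in horizontal nuclei. Kmt2e was at 662 and 436 CPM in Müller nuclei. The intervals of Hdac5 overlapped between the libraries in both classes. In bipolar nuclei as annotated, Hdac9 was at 378 CPM in the Cre− and 375 CPM in the Tet tcKO library.

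**Figure D4:**
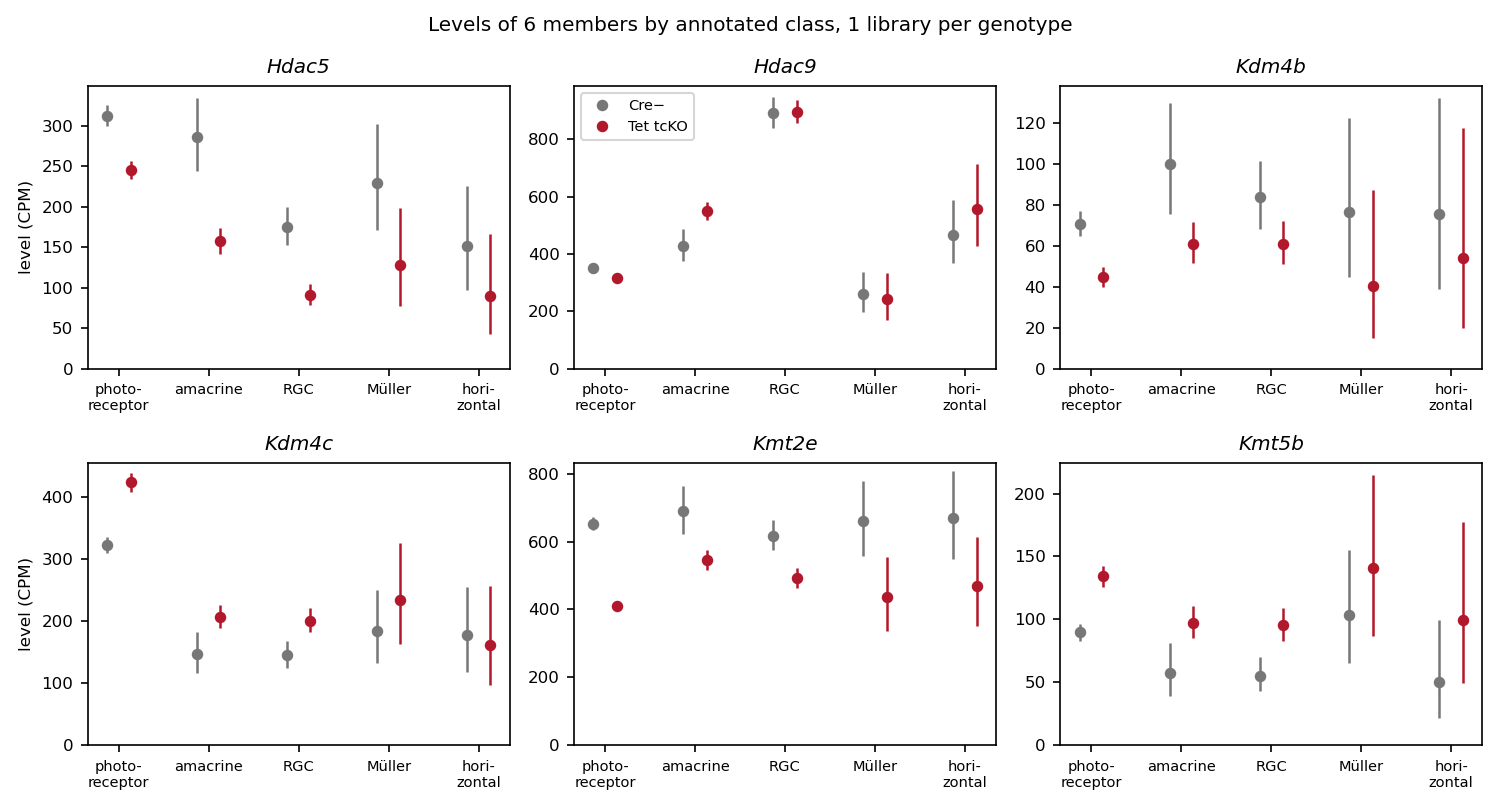
Levels of Hdac5, Hdac9, Kdm4b, Kdm4c, Kmt2e and Kmt5b in CPM are plotted by annotated class for Cre− (grey) and Tet tcKO (red), with bars for 95% Poisson intervals and each vertical axis starting at 0. Hdac9 peaks in RGC nuclei at 893 and 897 CPM, and the red Hdac5 and Kmt2e points lie under the grey ones in photoreceptor, amacrine and RGC nuclei, the classes compared between genotypes.

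The genotype ratio differed between classes for some members beyond counting error. The interval of the difference from photoreceptors excluded 0 for 13 of 49 members in amacrine and 14 of 50 in RGC nuclei, where it did for 20.6% and 25.9% of all genes tested in both classes with UMIs in every sum. Nothing particular to the members follows from these shares. Intervals of the ratio itself lay on opposite sides of the median gene for 2 of 49 members in amacrine nuclei (Hdac8 and Hdac9) and 3 of 50 in RGC nuclei (Ezh1, Hdac3 and Kdm3b), where they did for 2.22% and 2.47% of all genes. Kmt2e and Kmt2c, low in photoreceptors, were nearer the median gene in both neuron classes, with differences of 0.57 (0.40 to 0.75) and 0.54 (0.30 to 0.78) for amacrine nuclei and 0.56 (0.41 to 0.71) and 0.52 (0.32 to 0.72) for RGC nuclei. Kdm3b differed by 0.67 (0.19 to 1.16) in amacrine nuclei and 1.19 (0.76 to 1.62) in RGC nuclei. Ezh1 differed by 1.39 (0.72 to 2.06) in RGC nuclei. Hdac3 went the other way, by -0.64 (-1.10 to -0.19) and -0.80 (-1.17 to -0.42), as did Kmt2b, by -0.61 (-1.03 to -0.18) and -0.52 (-0.90 to -0.15). These differences were not checked against replicates.

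Of the members, 4 are X-linked, and sex chromosome genes were read beside them. Xist was at 1425 CPM in the Cre− library and 1922 CPM in the Tet tcKO library, for a log2 ratio of 0.29 (0.26 to 0.31). The Y-linked Ddx3y, Uty and Eif2s3y had log2 ratios of -0.48, -0.06 and -0.06. Over all nuclei Kdm6a was at 0.25, while Kdm5c, Hdac6 and Hdac8 were between -0.03 and 0.08, and the part of the animals' sex in these values was not tested.

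Partner genes came from lists of the same pathways. Over all nuclei they are read against the shares of all genes tested, 10.6% lower and 7.75% higher. Of 10 acetyltransferases, 7 sirtuins, 10 COMPASS partners, 4 PRC2 partners, 15 PRC1 genes and 12 other lysine methyltransferases tested, 0 were past 1.5-fold in either direction, with medians from -0.10 for acetyltransferases to 0.20 for PRC1. Of 17 genes of the deacetylase complexes, Tbl1xr1, a subunit of the NCoR complex, was higher at 39.9 and 68.8 CPM, for a log2 ratio of 0.64 (0.48 to 0.80), and Gps2, another NCoR subunit, lower at 49.7 and 35.2 CPM, for a log2 ratio of -0.64 (-0.81 to -0.47). Ncor1 itself had -0.56 (-0.61 to -0.51). Of 6 other JmjC genes, Hr, a corepressor and H3K9 demethylase, was higher at 48.9 and 93.6 CPM, for a log2 ratio of 0.79 (0.65 to 0.93).

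Within photoreceptors 11.5% of all genes were higher and 13.2% lower, more than over all nuclei, and the partner lists are read against those shares. Ncor1 was lower at 468 CPM in the Cre− library and 288 CPM in the Tet tcKO library, for a log2 ratio of -0.93 (-1.01 to -0.86). The histone-binding Rbbp7 was higher at 33.1 and 66.0 CPM, for a log2 ratio of 0.76 (0.54 to 0.98), and the COMPASS partner Hcfc1 at 18.2 and 38.6 CPM, for a log2 ratio of 0.85 (0.55 to 1.15). PRC1 genes had 3 higher, 1 lower and a median of 0.43 among 15 tested. In amacrine nuclei 4 of 7 sirtuins were lower, with a median of -0.59, where 16.5% of all genes were lower, and in RGC nuclei 1 of 7 was.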

How the data were processed

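Per the labels and the study's methods, the authors captured nuclei with PIPseq, processed reads with pipseeker 3.3.0, aligned them to GRCm39, removed ambient RNA with Cellbender 0.3.0 and left out nuclei with 500 transcripts or fewer, 10000 or more, or a mitochondrial share of 20% or more. Values in the deposited matrices are whole UMI counts left after ambient RNA removal. The deposited mitochondrial percent per nucleus, the size factor (a ratio) and the mean signal per genotype (counts per 10000, equal to the matrices within 0.1% for all 32227 genes) were not used for levels.

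UMIs were summed per library and annotated class. Ratios carry exact conditional intervals, levels Poisson intervals, and differences of ratios a normal approximation, all at 95%. With 1 library per genotype no test was made, and nuclei were not treated as replicates. No doublets were removed, and 226 Cre− and 583 Tet tcKO nuclei had 5000 UMIs or more. Counts of 0 took a floor of 3. Members, role groups and partner lists were chosen with earlier results of these data known. Members given in full were the 5 highest and 5 lowest per population, fixed pairs and the 5 largest differences between classes, and partner genes the highest and lowest of a list. Others in full, such as Kmt2a, Hdac4 and Ncor1 over all nuclei, were chosen after their values were seen. Alternatives were other scalings (TMM in edgeR 4.0.16), filters, folds, nuclei and clusters. Python 3.11.15, numpy 2.4.6, scipy 1.17.1 and pandas 2.3.3 were used.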

Additional observations from a re-analysis of the deposited data

Results flagged for a closer look

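Of 100 comparisons of a member's genotype ratio between photoreceptors and another class, 5 had counting intervals on opposite sides of the median gene. These were 2 of 49 members tested in amacrine and 3 of 50 in RGC nuclei, where 2.22% and 2.47% of all genes tested in both classes did so. Against pooled rods and cones, the log2 ratio in amacrine nuclei was higher by 0.75 for Hdac9 (-0.38 in photoreceptors, 0.37 in amacrine nuclei) and by 0.83 for Hdac8 (-0.23 and 0.59). In RGC nuclei it was higher by 1.39 for Ezh1 (-0.43 in photoreceptors, 0.96 in RGC nuclei) and by 1.19 for Kdm3b (-0.65 and 0.54), and for Hdac3 the difference was -0.80 (0.27 and -0.53). With 1 library per genotype, none of these differences was tested against replicates. Within cluster 31, an RGC cluster, Hdac3 had 2 Cre− and 44 Tet tcKO UMIs, a log2 ratio of 2.14 (0.20 to 5.23), against -0.34 (-0.92 to 0.26) in cluster 2.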

How the results depend on the processing

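No paired analysis was possible because each genotype had 1 library and the labels number no replicates. Of 98 medians and counts recomputed under 13 settings, 77 stayed within the limits set for them and 21 did not. For a median the limit was the counting interval of the member nearest to it, and for a count 1.5-fold. These limits are wide, and a median could change sign within them. Medians lay near 0 and some changed sign, over all nuclei to 0.09 without centring and in amacrine nuclei to 0.06 with TMM factors, 0.03 with median-of-ratios factors and 0.02 among genes at 1 CPM or more. The count of members past 1.5-fold over all nuclei, 7, was 0 without centring, 4 with TMM factors and 2 among genes at 50 CPM or more. In photoreceptors it was 3 at 50 CPM, and the median was 0.15 without centring. The amacrine count, 10, was 6 with nuclei of 1000 UMIs or more and 5 at 50 CPM, and the RGC count, also 10, was 4 at 50 CPM. A 2-fold limit left 0, 0, 1 and 1 members over all nuclei and in photoreceptors, amacrine and RGC nuclei. Of all genes tested there, 5.70%, 8.04%, 12.9% and 6.62% passed that limit. A 5/4-fold limit left 15, 19, 24 and 26 members. Shares over all genes are not given for that limit or the other settings, so nothing particular to the members follows from these counts. Between classes, counting a gene once per nucleus left 0 members past 2-fold in Cre− amacrine, Cre− RGC and Tet tcKO amacrine nuclei and 3 in Tet tcKO RGC nuclei, while Cre− RGC nuclei of 1000 UMIs or more had 5. Of 1798 values of single members, 160 lay outside the counting interval and, among those past 1.5-fold, 6 reversed, all within 1 cluster, a setting added after the data were seen. These were Kdm8 (-0.11) and Setd6 (0.21) in cluster 2, Setd4 (-0.12), Hdac11 (-0.71) and Kdm4d (0.69) in cluster 13, and Hdac5 (1.46) in cluster 31. Each of the 6 rested on 2 to 5 Cre− UMIs in the cluster, and the cause was not tested. Kmt2a, under 1.5-fold in RGC nuclei and so outside these 6, also changed side in cluster 31, to 0.68 on 33 Cre− UMIs. Among the 4 populations compared between genotypes, counts limited amacrine and RGC nuclei most, where intervals spanned the median gene for 35 of 49 and 35 of 50 members tested.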
